A study of Mus musculus with 12 samples.

Results

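Epithelial-mesenchymal transition (EMT) regulators and mesenchymal markers were followed from a mouse Notch-1 leukemia through reprogramming colonies to induced pluripotent stem (iPS) cells. The 7 genes were chosen by name, namely the zinc finger factor genes Zeb1, Zeb2, Snai1 and Snai2, the basic helix-loop-helix factor gene Twist1, the intermediate filament gene Vim and the N-cadherin gene Cdh2. A probe set that names 1 gene was used for each gene, the brightest where there were several, and this gave values for 6 of the 7 genes among 22180 genes in all. The 2 probe sets that list Zeb2 also list a second gene, so no Zeb2 value is given.

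The series holds 12 Affymetrix arrays, with 3 arrays in each of 4 groups. One group is leukemia taken from the spleen of a NOTCH1 model (the titles call both it and the iPS cells Notch-1), the second GFP+ colonies (described as partially reprogrammed), the third GFP- colonies (described as reprogrammed) and the last established iPS cells, all derived from the leukemia per the labels. Every group has the mouse genotype R26rtTA;Col1a12lox-4F2A, which carries an inducible cassette of reprogramming factors, so the leukemia that serves as the reference carries it too. The leukemia titles share 1 leukemia number, the labels do not say which cells GFP marks or whether feeder cells were present, and the titles call the arrays biological replicates without naming separate animals or cultures, which limits the tests to array-to-array spread that may be technical. Ages and treatment times are not given in the labels.

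In an epithelial-mesenchymal transition, cells lose E-cadherin contacts and take up a migratory state with vimentin filaments and N-cadherin. Snail (Snai1), Slug (Snai2) and the Zeb proteins repress Cdh1, the E-cadherin gene, through E-box sequences, and Twist1 acts in the same network. MicroRNAs of the miR-200 family repress Zeb1 and Zeb2, and Zeb proteins repress the miR-200 genes in turn. Reprogramming of fibroblasts is known to pass through the reverse change, but blood cells start without an epithelial or fibroblast character, and Zeb1 is also a regulator of T cell development.

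The mature miR-200 microRNAs and miR-205 are shown because Zeb1 was the member that fell, and because the array carries probe sets for their precursors. Sequences are from RefSeq (GRCm38.p6), all 6 names were matched, and capitals mark the seed, bases 2 to 8.
mmu-miR-200b-3p: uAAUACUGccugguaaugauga
mmu-miR-200c-3p: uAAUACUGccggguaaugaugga
mmu-miR-429-3p: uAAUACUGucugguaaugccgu
mmu-miR-200a-3p: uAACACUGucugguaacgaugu
mmu-miR-141-3p: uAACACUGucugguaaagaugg
mmu-miR-205-5p: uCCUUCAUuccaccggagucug
The first 3 share the seed AAUACUG, the next 2 share AACACUG, and miR-205 has a seed of its own. Mir200b lies at chr4:156055685-156055706 on the minus strand, close to Mir200a (chr4:156054911-156054932) and Mir429 (chr4:156053916-156053937), and Mir200c (chr6:124718324-124718346) lies near Mir141 (chr6:124717917-124717938).

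The promoters are shown for the E-box CAGGTG, the sequence that Snail and Zeb proteins bind, searched on both strands (CACCTG on the other). Each window is the 250 bases before the start site on the plus strand of GRCm38.p6, from RefSeq, and capitals mark the motif. Windows were matched for the measured members Snai1, Twist1 and Vim. Epcam is the only epithelial gene shown, and its window does not speak for the others. Zeb1, Snai2, Cdh2 and Cdh1 were not matched.
Epcam, chr17:87635729-87635978: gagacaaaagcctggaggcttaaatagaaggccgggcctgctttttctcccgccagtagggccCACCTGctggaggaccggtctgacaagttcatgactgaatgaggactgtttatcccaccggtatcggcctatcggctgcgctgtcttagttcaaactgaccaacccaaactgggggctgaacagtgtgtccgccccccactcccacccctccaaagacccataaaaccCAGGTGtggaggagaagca
Snai1, chr2:167537945-167538194: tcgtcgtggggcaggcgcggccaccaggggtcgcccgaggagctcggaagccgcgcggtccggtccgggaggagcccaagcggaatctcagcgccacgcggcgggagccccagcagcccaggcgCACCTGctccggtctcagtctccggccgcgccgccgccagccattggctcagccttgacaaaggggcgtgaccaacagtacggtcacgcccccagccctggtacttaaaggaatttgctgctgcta
Twist1, chr12:33957421-33957670: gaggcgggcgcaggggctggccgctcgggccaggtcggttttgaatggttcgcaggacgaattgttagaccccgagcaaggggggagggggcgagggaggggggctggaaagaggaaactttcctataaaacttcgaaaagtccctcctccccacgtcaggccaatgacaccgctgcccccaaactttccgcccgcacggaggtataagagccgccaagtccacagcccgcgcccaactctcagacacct
Vim, chr2:13574061-13574310: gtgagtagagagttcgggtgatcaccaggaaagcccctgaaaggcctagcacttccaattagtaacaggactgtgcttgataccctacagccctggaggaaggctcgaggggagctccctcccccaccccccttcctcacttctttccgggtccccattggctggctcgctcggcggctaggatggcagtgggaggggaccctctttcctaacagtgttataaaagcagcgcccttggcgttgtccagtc
Epcam held 2 matches, starting 187 and 19 bases before the start site, and Snai1 held 1, starting 126 bases before it. Twist1 and Vim held 0 in these windows. Of 32851 promoter windows of this length 17.2% held the motif at least once and 2.06% at least 2 times. A match describes the letters only, and binding was not measured.

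Values are log2 levels of the deposited RMA table, which is normalised between arrays, and differences are log2 ± standard error from a limma fit over all genes with n = 3 arrays in each group. A gene is called at an adjusted p under 0.05 (Benjamini-Hochberg over 22180 genes). In RNA from mixed cells, fewer cells of a type and less RNA per cell cannot be told apart. Replicate spread was wider in the colonies than in leukemia or iPS cells for Zeb1, Snai1, Twist1, Vim and Cdh2. For Snai2 this held in GFP- colonies (SD 0.32) but not in GFP+ colonies (0.06, against 0.12 in leukemia). GFP+ replicate 3 stood apart by macrophage markers (mean of 9 genes 9.03, against 6.13 to 7.68 on the other colony arrays), and GFP- replicate 3 by epithelial markers (mean of 7 genes 8.32, against 10.41 to 11.70). GFP- replicate 1 went against its description as reprogrammed by part of its markers. Nanog was at 5.07 there (11.35 and 11.85 on the other GFP- arrays, 4.32 to 4.99 in leukemia), Zfp42 at 6.26 and Esrrb at 4.94. The T cell gene Cd3e was at 9.83 (6.13 and 6.04 on the other GFP- arrays). Of the other pluripotency markers Tdgf1 (9.75), Tfcp2l1 (8.72) and Fbxo15 (6.01) lay above leukemia (at most 5.35, 4.98 and 4.10), and Dppa5a (5.46) did not. The array's mean of 7 pluripotency markers was 6.60, against 7.84 to 9.77 on the other colony arrays and 4.95 to 5.24 in leukemia. Results are therefore also given without these arrays where a call or a value changed. The leukemia label was met by 7 T cell markers, which averaged 10.88 to 10.89 on leukemia arrays and at most 6.89 on any other array. Between derived groups 1 of the 7 was called, lower in iPS cells than in GFP+ colonies, and 0 without any 1 array of that comparison. Bcl11b was at 7.22 to 7.41 on GFP+ arrays and 6.19 to 6.47 on iPS arrays, and Cd3e at 8.26 to 9.57 and 6.43 to 6.85. Cd3e had the wider spread in GFP+ and GFP- colonies (SD 0.70 and 2.16, against 0.10 and 0.65 for Bcl11b).

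Zeb1 was the single member that fell from leukemia in every derived group. It measured 8.57, 8.72 and 8.66 on leukemia replicates 1, 2 and 3. On the GFP+ arrays it measured 6.14, 6.44 and 5.97, on the GFP- arrays 5.76, 6.12 and 6.30, and on the iPS arrays 6.60, 6.64 and 6.68. All leukemia arrays lay above all 9 others, by more than the spread of any group. The difference from leukemia was -2.47 ± 0.15 in GFP+ colonies (5.53-fold lower, adjusted p = 1.45e-06), -2.59 ± 0.15 in GFP- colonies (6.03-fold, adjusted p = 9.39e-07) and -2.01 ± 0.15 in iPS cells (4.04-fold, adjusted p = 6.04e-06). The T cell markers fell in the same samples, all 7 of 7 in each comparison, and the part of lost T cells in the Zeb1 result was not tested. Among the derived groups the iPS arrays lay highest for Zeb1 and did not overlap with the colonies, but the differences were not called (0.45 ± 0.15 against GFP+, adjusted p = 0.0847, and 0.58 ± 0.15 against GFP-, adjusted p = 0.0637). They were called without GFP+ replicate 2 (0.58, adjusted p = 0.0327) and without GFP- replicate 3 (0.70, adjusted p = 0.0286). Against GFP+ colonies the difference was also called with array weights (0.46, adjusted p = 0.00532) but not with cyclic loess (0.39, adjusted p = 0.142).

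**Figure D1:**
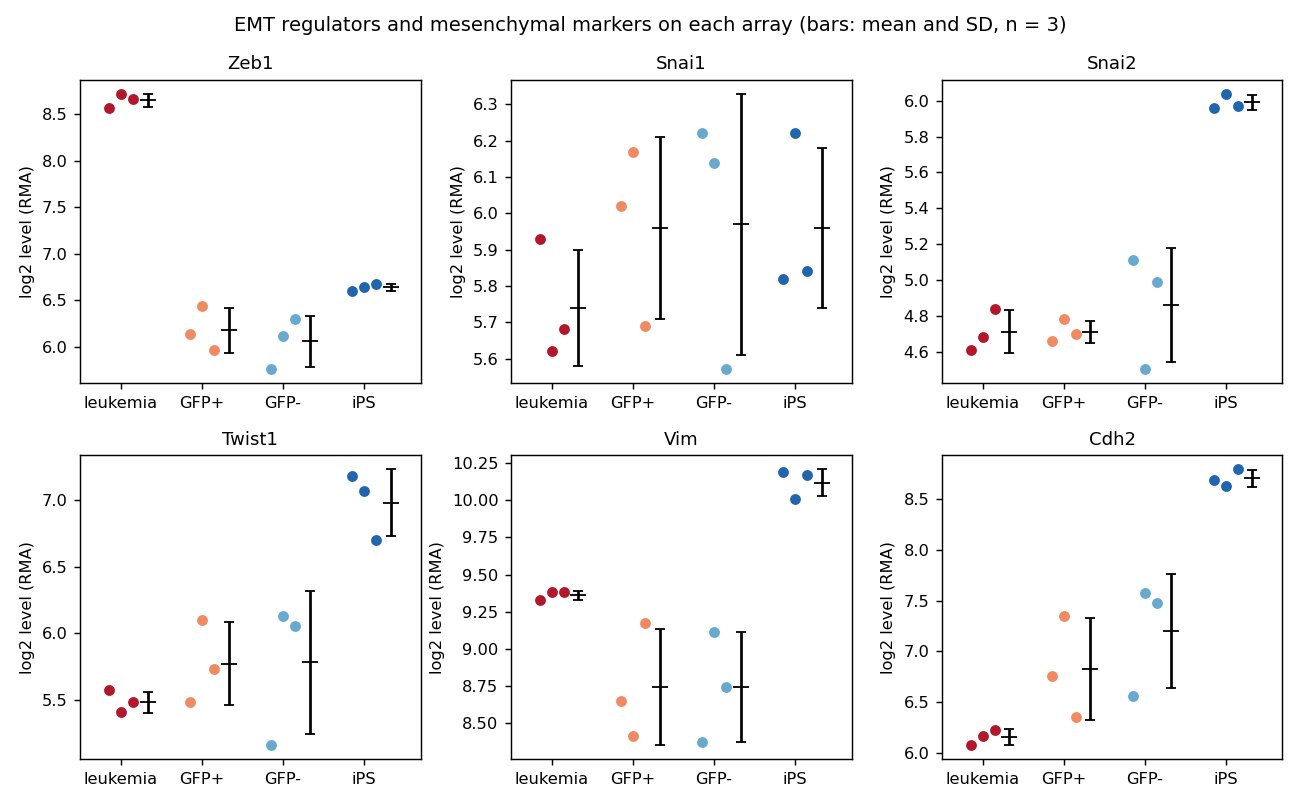
Log2 RMA level of the 6 measured genes on each of 3 arrays of leukemia, GFP+ colonies, GFP- colonies and iPS cells (points), with mean and SD (bars), on a separate vertical scale for each gene. Zeb1 is highest on the 3 leukemia arrays (8.57 to 8.72), and Snai2, Twist1, Vim and Cdh2 are highest on the 3 iPS arrays.

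Snai1 was the member with the least movement. Its 12 values ran from 5.57 to 6.22, with group means of 5.74 ± 0.16 in leukemia, 5.96 ± 0.25 in GFP+ colonies, 5.97 ± 0.36 in GFP- colonies and 5.96 ± 0.22 in iPS cells (SD). All groups overlapped and none of the 6 comparisons was called. The 95% interval of iPS cells against leukemia, not adjusted for the number of genes, was -0.22 to 0.66. It holds both no change and a rise of up to 0.66.

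Snai2, which encodes Slug, was higher in iPS cells than in the other 3 groups. It measured 4.61, 4.68 and 4.84 on leukemia arrays, 4.66, 4.78 and 4.70 on GFP+ arrays, 5.11, 4.50 and 4.99 on GFP- arrays, and 5.96, 6.04 and 5.97 on iPS arrays. The iPS arrays lay above all others, while leukemia and the colonies overlapped. The rise was 1.28 ± 0.15 against leukemia (2.43-fold, adjusted p = 1.19e-04), 1.28 ± 0.15 against GFP+ colonies (adjusted p = 0.00179) and 1.12 ± 0.15 against GFP- colonies (adjusted p = 0.00353). The last was lost in a fit of the 6 compared arrays alone (adjusted p = 0.0579). Leukemia and colony levels of Snai2 lay below the array medians of 5.76 to 5.82, where no background was measured, so the fold describes the deposited values only.

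Twist1 followed the same order. It measured 5.57, 5.41 and 5.48 on leukemia arrays, 5.48, 6.10 and 5.73 on GFP+ arrays, 5.16, 6.13 and 6.05 on GFP- arrays, and 7.18, 7.07 and 6.70 on iPS arrays. The iPS arrays again lay above the rest, and the colonies overlapped with leukemia. The rise in iPS cells was 1.5 ± 0.25 against leukemia (2.83-fold, adjusted p = 0.00151), 1.21 ± 0.25 against GFP+ colonies (adjusted p = 0.0177) and 1.20 ± 0.25 against GFP- colonies (adjusted p = 0.0268). Against GFP+ colonies the call was lost without GFP+ replicate 1 or iPS replicate 1 or 2 (adjusted p 0.0647 to 0.0769), and against GFP- colonies without any 1 iPS array (0.061 to 0.116) and with the 6 compared arrays alone (0.13). Without GFP- replicate 1, Twist1 was also called higher in GFP- colonies than in leukemia (0.60, adjusted p = 0.0382). Its leukemia levels also lay below the array medians, so the fold has the same limit.

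Vim, which encodes the intermediate filament of mesenchymal cells and is also present in leukocytes, had its lowest levels in the colonies by its brighter probe set. It measured 9.33, 9.38 and 9.38 on leukemia arrays, 8.65, 8.41 and 9.17 on GFP+ arrays, 8.37, 9.11 and 8.74 on GFP- arrays, and 10.19, 10.01 and 10.17 on iPS arrays. Neither colony group overlapped with leukemia or with iPS cells. Vim rose in iPS cells by 0.76 ± 0.21 over leukemia (1.69-fold, adjusted p = 0.0225), by 1.38 ± 0.21 over GFP+ colonies (2.60-fold, adjusted p = 0.00517) and by 1.38 ± 0.21 over GFP- colonies (adjusted p = 0.00711). The call against leukemia was lost without any 1 of the 3 leukemia arrays or without iPS replicate 1 or 3 (adjusted p 0.0618 to 0.0744), at differences of 0.73 to 0.77. Colonies differed from leukemia by -0.62 ± 0.21 (GFP+, adjusted p = 0.0572) and -0.63 ± 0.21 (GFP-, adjusted p = 0.0576), which was not called. Without GFP+ replicate 3 the GFP+ difference was -0.84 and called (adjusted p = 0.0108), and without GFP- replicate 2 the GFP- difference was -0.81 and called (adjusted p = 0.0235). These arrays had the highest Vim and also the highest macrophage marker mean of their groups (9.03 on GFP+ replicate 3 and 7.68 on GFP- replicate 2), and the part of macrophages in Vim was not tested. A second, dimmer Vim probe set moved less, and the probe sets disagreed. It was called for iPS cells over GFP+ colonies (0.40 ± 0.10, adjusted p = 0.0296) but not over leukemia (0.11 ± 0.10) or GFP- colonies (0.07 ± 0.10). Against leukemia it differed by -0.29 ± 0.10 in GFP+ colonies (adjusted p = 0.0549) and by 0.04 ± 0.10 in GFP- colonies (adjusted p = 0.84). With the mean of both probe sets the rise over leukemia in iPS cells was 0.43 (adjusted p = 0.0301). The colony differences were then -0.46 in GFP+ (adjusted p = 0.0258) and -0.29 in GFP- (adjusted p = 0.133).

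Cdh2, the cadherin of mesenchymal and neural cells, was the member with the largest rise. It measured 6.08, 6.17 and 6.23 on leukemia arrays, 6.76, 7.35 and 6.36 on GFP+ arrays, 6.56, 7.57 and 7.48 on GFP- arrays, and 8.68, 8.63 and 8.79 on iPS arrays. Leukemia lay below all colony arrays and the colonies below all iPS arrays. In iPS cells Cdh2 was higher by 2.55 ± 0.28 than in leukemia (5.84-fold, adjusted p = 9.16e-05), by 1.88 ± 0.28 than in GFP+ colonies (adjusted p = 0.00486) and by 1.5 ± 0.28 than in GFP- colonies (adjusted p = 0.0166). The last was lost without any 1 iPS array (adjusted p 0.0652 to 0.0764) and with the 6 compared arrays alone (0.0772). GFP- colonies exceeded leukemia by 1.04 ± 0.28 (2.06-fold, adjusted p = 0.023), a call lost without any array of the comparison but GFP- replicate 1 (adjusted p 0.0591 to 0.0839) and with these 6 arrays alone (0.057). Without GFP- replicate 1 the difference was 1.37 (adjusted p = 0.00148). For GFP+ colonies the difference of 0.67 ± 0.28 was not called (adjusted p = 0.122), and without GFP+ replicate 3 it was 0.90 (adjusted p = 0.048). A second Cdh2 probe set gave 2.36 ± 0.19 for iPS cells over leukemia and the same calls in all 6 comparisons.

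Cdh2 is set beside the pluripotency markers within the colonies. The mean of the 7 pluripotency markers was 8.28, 9.65 and 7.84 on GFP+ replicates 1, 2 and 3, where Cdh2 measured 6.76, 7.35 and 6.36. On GFP- replicates 1, 2 and 3 the marker mean was 6.60, 9.33 and 9.77, where Cdh2 measured 6.56, 7.57 and 7.48. GFP+ replicate 3 and GFP- replicate 1 were lowest of their groups on both measures. Within the GFP+ colonies both measures had the same order on all 3 arrays. In the GFP- colonies they did not, as replicate 3 had the highest marker mean and slightly less Cdh2 (7.48) than replicate 2 (7.57). Twist1 was also lowest on GFP- replicate 1 (5.16). No relation was tested over these 6 arrays.

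Over the 6 measured genes, calls were most frequent where iPS cells were compared. Against leukemia 4 rose in iPS cells (Snai2, Twist1, Vim and Cdh2) and 1 fell (Zeb1), where 12.4% of all genes rose and 11.9% fell (24.3% called in either direction). In GFP+ colonies 0 rose and 1 fell against leukemia, where 9.60% of all genes rose and 12.3% fell (21.9%). In GFP- colonies 1 rose and 1 fell, where 9.02% rose and 12% fell (21.0%). The same 4 genes rose and 0 fell in iPS cells against GFP+ colonies, where 6.15% of all genes rose and 4.23% fell (10.4%), and against GFP- colonies, where 2.94% rose and 1.32% fell (4.25%). The 3 comparisons with leukemia share the leukemia arrays, and the 3 with iPS cells share the iPS arrays. The median difference of the 6 genes was 1.02, 1.24 and 1.16 in iPS cells against leukemia, GFP+ and GFP- colonies, and between -0.03 and 0.01 over all genes. In the fit of the compared arrays alone, iPS cells against GFP- colonies kept 1 of the 4 calls, Vim (adjusted p = 0.0484), where 0.857% of all genes were called in either direction. Without GFP+ replicate 3 and GFP- replicate 1 together, GFP+ colonies had 1 member higher and 2 lower than leukemia and GFP- colonies 2 higher and 2 lower.

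Between the colony groups no member was told apart. Limma called 0 of 6 genes, 0 had an unadjusted p under 0.05, and 0 of 22180 genes were called in all (0%), with 1413 at an unadjusted p under 0.05. The fit with array weights and the fit of these 6 arrays alone also called 0 members. The largest difference was that of Cdh2, 0.38 ± 0.28 higher in GFP- colonies (95% interval -0.25 to 1.0). It was 0.70 without GFP- replicate 1 (adjusted p = 0.0985), 0.64 without GFP+ replicate 2, 0.68 with array weights (adjusted p = 0.0505) and 0.14 to 0.24 without GFP+ replicate 3 or GFP- replicate 2 or 3. The interval was -0.46 to 0.21 for Zeb1 and -0.47 to 0.46 for Vim. These intervals are not adjusted for the number of genes, so they are no limit of detection for the calls. With 3 arrays a group, differences inside them remain possible.

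**Figure D2:**
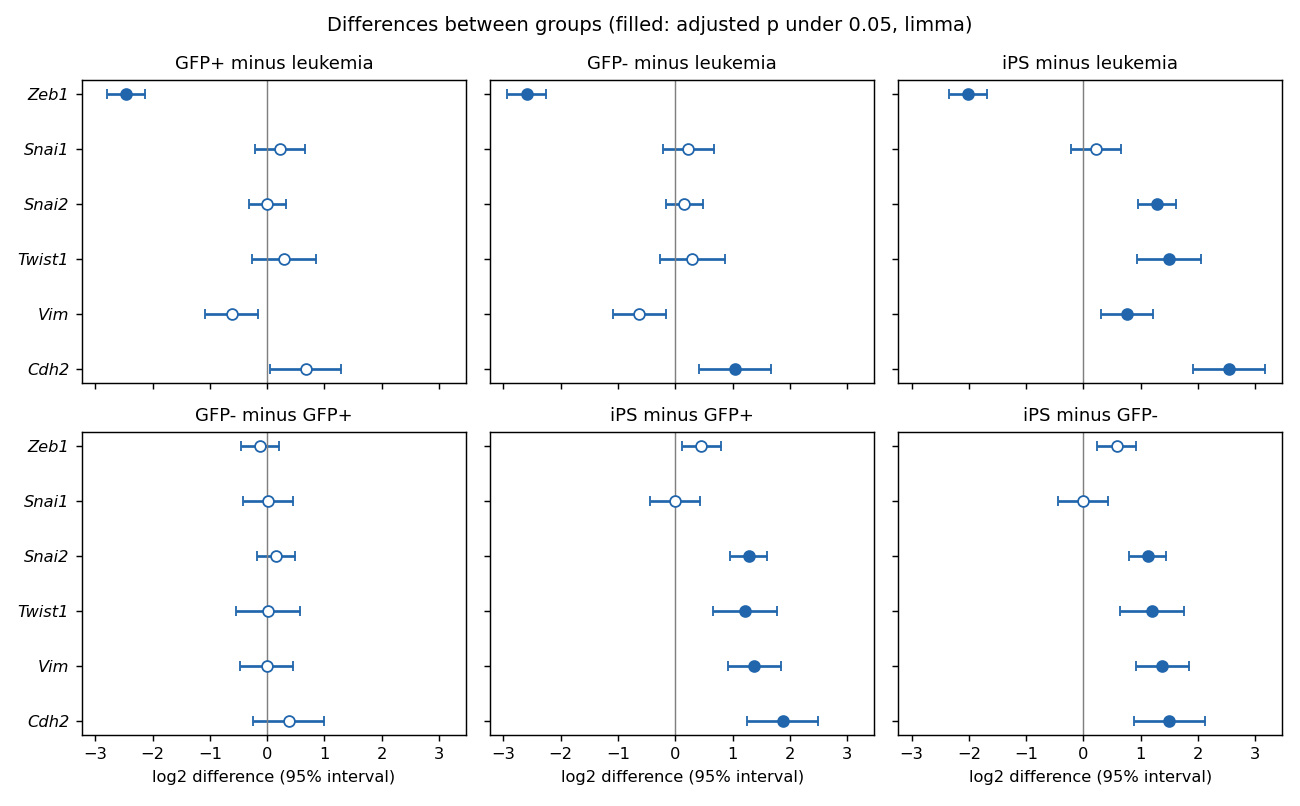
Log2 difference of each measured gene in 6 comparisons (points, with 95% intervals from limma), filled where the adjusted p is under 0.05. Zeb1 lies left of 0 in the 3 comparisons with leukemia, and Snai2, Twist1, Vim and Cdh2 lie right of 0 in the 3 comparisons of iPS cells.

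Cdh1 and most of the other listed epithelial genes were called higher than in leukemia in each derived group. A link between these rises and the repressors was not tested. Cdh1 measured 5.93, 5.85 and 6.14 on leukemia arrays and from 11.22 to 12.73 on the other 9. Of 10 regulators and markers of the epithelial state 7 rose in GFP+ colonies, 7 in GFP- colonies and 6 in iPS cells over leukemia and 0 fell. Their medians were 3.11, 2.73 and 1.79, and of all genes 9.60%, 9.02% and 12.4% rose in this order. The splicing factor gene Esrp1 rose by 4.85 ± 0.26, 4.50 ± 0.26 and 3.71 ± 0.26 in this order (adjusted p = 5.5e-07, 9.42e-07 and 3.96e-06), and Epcam, whose promoter window is printed above with its 2 E-boxes, by 4.47, 4.48 and 4.14. Cdh1 and Cdh2 were thus both higher in iPS cells than in leukemia, Cdh1 by 5.42 ± 0.30 and Cdh2 by 2.55 ± 0.28. From GFP+ colonies to iPS cells Cdh2 rose, while the Cdh1 difference of -1.04 ± 0.30 just missed the threshold (adjusted p = 0.0504). Elf3, an epithelial transcription factor gene, was lower in iPS cells than in GFP+ (-1.41 ± 0.20, adjusted p = 0.00424) and GFP- colonies (-1.22 ± 0.20, adjusted p = 0.0105), the latter not without iPS replicate 3 or with the compared arrays alone (highest adjusted p = 0.0682).

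Of the miR-200 and miR-205 precursors, 5 of 6 had a probe set of their own, and Mir200b rose. It measured 5.04, 5.02 and 5.08 on leukemia arrays, 5.50, 5.73 and 6.16 on GFP+ arrays, 5.23, 5.62 and 5.72 on GFP- arrays, and 5.66, 5.83 and 5.79 on iPS arrays. All 9 derived arrays lay above leukemia, while for Zeb1 they lay below it. Among the derived groups the order was not opposite, as GFP- colonies had the lowest mean of both (5.52 for Mir200b and 6.06 for Zeb1). A relation between Mir200b and Zeb1 was not tested. The difference was 0.74 ± 0.17 in GFP+ colonies (adjusted p = 0.0107), 0.71 ± 0.17 in iPS cells (adjusted p = 0.012) and 0.47 ± 0.17 in GFP- colonies, which was not called (adjusted p = 0.0789). Mir205 differed by 0.95 ± 0.32 in iPS cells (adjusted p = 0.0566), and Mir200a, Mir200c and Mir141 were not called in any comparison. In GFP- colonies 0 of the 5 precursors were called over leukemia, but 2 without GFP- replicate 1 and 3 with array weights. In iPS cells 1 was called, but 2 with cyclic loess, with array weights or with the compared arrays alone. These probe sets read precursor transcripts of low level, and the mature microRNAs printed above were not measured.

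**Figure D3:**
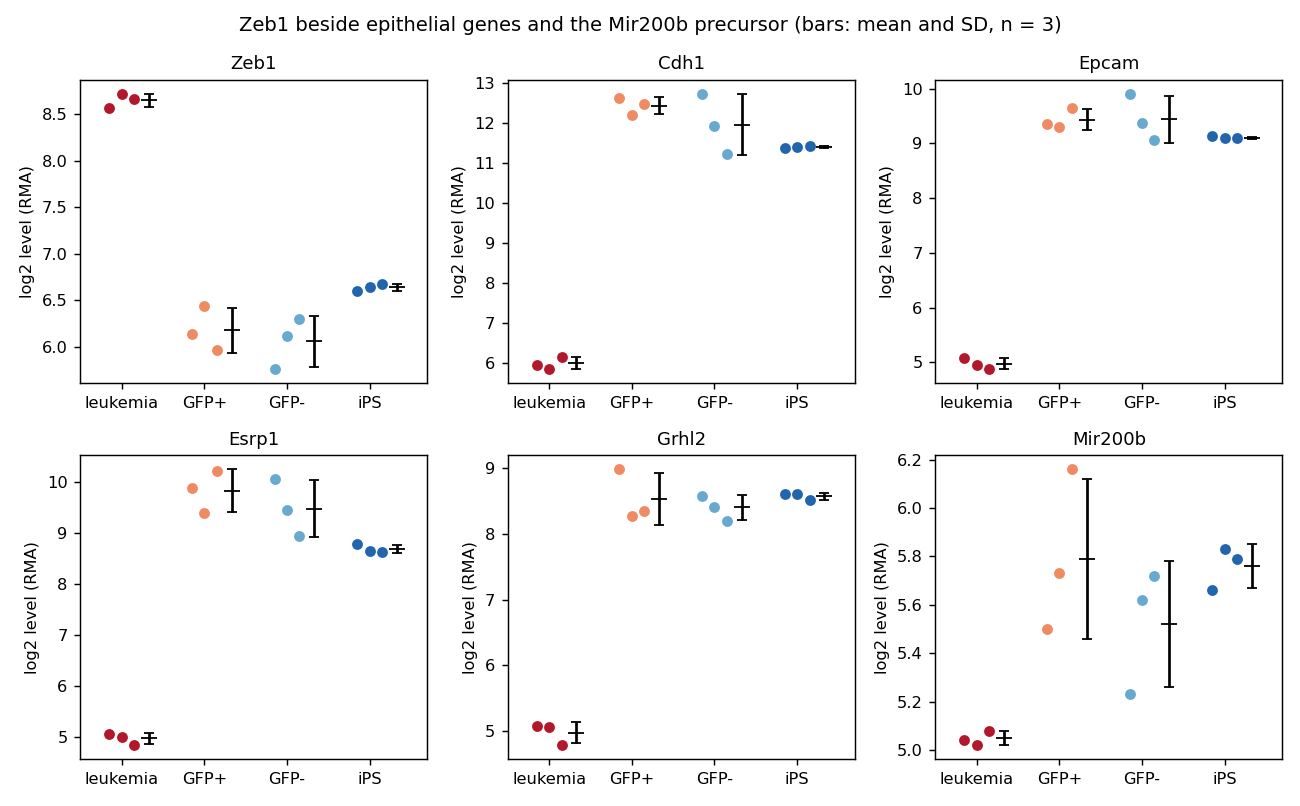
Log2 RMA level on each array (points) with mean and SD of 3 arrays (bars) for Zeb1, the epithelial genes Cdh1, Epcam, Esrp1 and Grhl2, and the Mir200b precursor, each on its own vertical scale. Leukemia is highest for Zeb1 and lowest for the other 5 genes, with Cdh1 at 5.85 to 6.14 on leukemia arrays and 11.22 to 12.73 elsewhere.

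Some other mesenchymal markers were already higher in the colonies, where few members rose. Of 12 measured, 6 rose and 1 fell in GFP+ colonies against leukemia (median 1.29), 5 rose and 1 fell in GFP- colonies (median 0.76), and 9 rose and 1 fell in iPS cells (median 2.89). Of the 6 members 0, 1 and 4 rose in the same comparisons, and of all genes 9.60%, 9.02% and 12.4%. Fibronectin (Fn1), a matrix protein, measured 5.58 to 5.63 on leukemia arrays and 11.64 to 11.67 on iPS arrays, and it was already at 10.84, 11.52 and 11.43 on GFP+ arrays and 10.04, 11.68 and 11.86 on GFP- arrays. The gene that fell was Thy1, a surface antigen of both fibroblasts and mouse T cells (in iPS cells -3.31 ± 0.15, adjusted p = 1.7e-07). Against GFP+ colonies 7 rose in iPS cells (4 without any 1 iPS array) and against GFP- colonies 6 rose (3 with the compared arrays alone). Over all genes 6.15% and 2.94% rose in these comparisons. The integrin gene Itga5 rose by 1.74 ± 0.21 over each colony group (adjusted p = 0.00194 and 0.00228).

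Fibroblast markers, as a mean, were highest in iPS cells, as were Snai2, Twist1, Vim and Cdh2. The mean of the 8 markers ran from 6.23 to 6.36 on leukemia, 5.74 to 6.61 on GFP+, 5.67 to 6.08 on GFP- and 7.59 to 7.74 on iPS arrays. It includes Thy1, also a T cell gene, which averaged 10.44 in leukemia and 6.45, 6.56 and 7.13 in GFP+ colonies, GFP- colonies and iPS cells. The leukemia mean is therefore raised by Thy1. Within the GFP+ colonies replicate 2 had the lowest fibroblast mean (5.74) but the highest Cdh2 (7.35) and Twist1 (6.10). In iPS cells 5 of 8 rose and 1 fell against leukemia, 6 rose against GFP+ colonies (2 without iPS replicate 1 or 3, and 3 without iPS replicate 2), and 6 rose against GFP- colonies (3 without iPS replicate 2 or 3). Over all genes 12.4%, 6.15% and 2.94% rose in these comparisons. Dcn, which encodes the matrix proteoglycan decorin, measured 10.73, 10.64 and 10.81 on iPS arrays, 4.60 to 4.99 on leukemia arrays and 4.81 to 7.20 on colony arrays. Col3a1 was not called in iPS cells against any group. Which cells carried Snai2, Twist1, Vim and Cdh2 in the iPS samples, and the part of fibroblasts in their rise, was not tested.

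**Figure D4:**
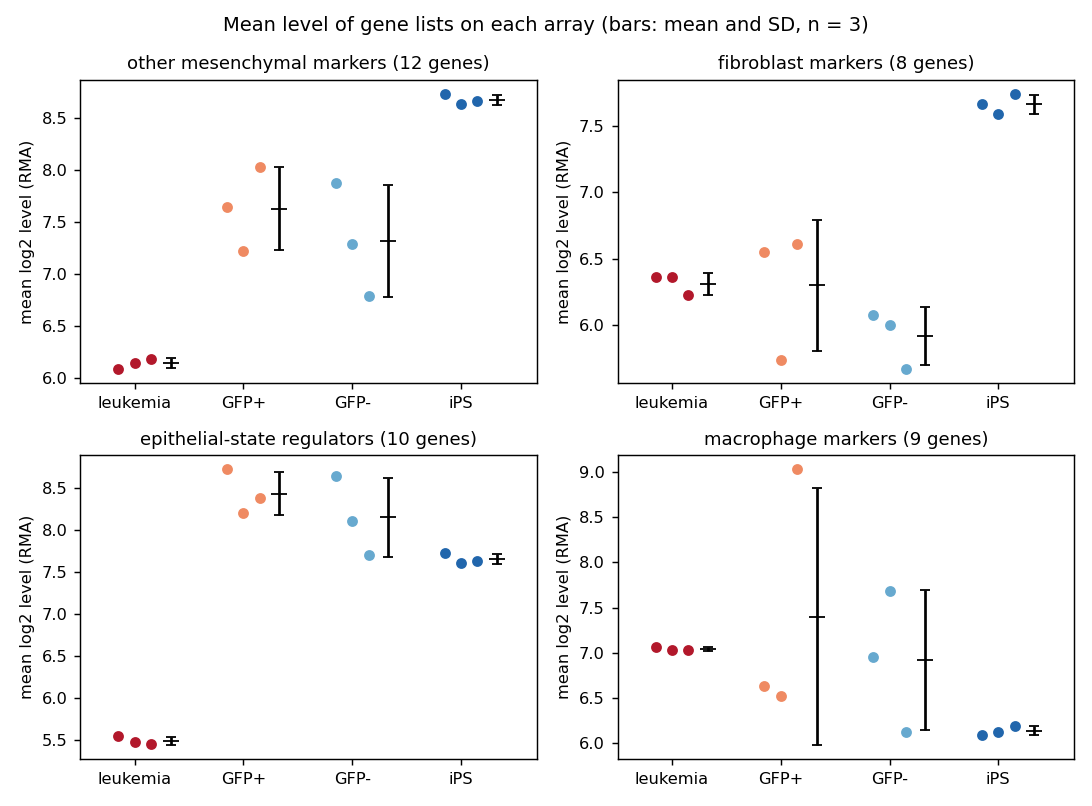
Mean log2 RMA level of 12 other mesenchymal markers, 8 fibroblast markers, 10 epithelial-state regulators and 9 macrophage markers on each array (points), with mean and SD of 3 arrays (bars). Fibroblast markers are highest on iPS arrays (7.59 to 7.74), and macrophage markers are highest on GFP+ replicate 3 (9.03).

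Of 11 other transcription factors of the transition, 3 rose and 1 fell in iPS cells against leukemia. Over all genes 12.4% rose and 11.9% fell there (24.3% called in either direction). The median difference of the 11 was 0.11, beside -0.03 over all genes. With the compared arrays alone 4 rose and 2 fell, where 47.5% of all genes were called. Prrx1, a homeobox gene of mesenchyme, rose by 2.74 ± 0.34 (adjusted p = 1.99e-04), Klf8 by 2.14 ± 0.40 (adjusted p = 0.00275) and the Snail relative Snai3 by 0.72 ± 0.16 (adjusted p = 0.00879). Sox4 fell by 2.20 on the log2 scale (adjusted p = 4.03e-05) and, like Zeb1, was highest on the leukemia arrays. In the colonies 1 rose and 2 fell against leukemia, Klf8 by 1.46 ± 0.40 in GFP+ and 1.65 ± 0.40 in GFP- colonies and Sox4 and Tcf3 downward. Over all genes 21.9% were called in GFP+ colonies and 21.0% in GFP- colonies, in either direction. The Klf8 call in GFP+ colonies was lost without any 1 leukemia array or GFP+ replicate 1 or 2, while 2 factors rose there without GFP+ replicate 3, and that in GFP- colonies without leukemia replicate 1 (adjusted p = 0.0501), where Tcf3 also stopped passing and 1 factor fell. Of 8 other cadherin genes, Cdh1 among them, 4 rose in iPS cells over leukemia, where 12.4% of all genes rose. After Cdh1 the largest rise was that of Cdh11, by 3.15 (adjusted p = 2.48e-04, limma). Cdh11 was also higher in iPS cells than in GFP+ (2.26) and GFP- colonies (2.83), both called. Cdh3, which encodes P-cadherin, rose over leukemia by 1.88 ± 0.30 (adjusted p = 0.00109).

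Patterns most like the members were found by Pearson correlation over the 12 arrays, among 18687 genes, as a description in which all points share the 4 groups. For Zeb1 they were Kif21b (r = 0.990), Tnfrsf19 (0.989) and Nxf1 (0.988), and for Cdh2 they were Asphd2 (0.995), Timm10 (0.994) and Ttc23 (0.988). For Snai2 they were Zscan4b (0.977), Atg101 (0.968) and Fgf7 (0.967), for Twist1 Ak4 (0.977), Rbm8a (0.972) and Mfsd10 (0.970), and for Vim Prkcsh (0.942), Rnf151 (0.938) and Rskr (0.937). Snai1, with its small range, reached 0.870 with Fbxo38, 0.829 with Kif17 and 0.825 with Nploc4.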

How the data were processed

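The log2 value of each probe set on each array was deposited by the authors after RMA, as named in the submitters' processing notes, from Trizol RNA labelled by an Affymetrix protocol, per the labels' protocols. RMA normalises between arrays, so a change of most genes one way would be removed. For software versions and filters, the sources used here name none. Array medians lay between 5.76 and 5.82, and signal over background was not measured.

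Of 41345 probe sets 23521 carried 1 gene symbol, 1814 several and 16010 none. For 1082 genes with several probe sets the brightest was used, which gave 22180 genes, fitted with 1 mean per group on 12 arrays (limma 3.58.1, R 4.3.3) and tested on simulated data. Entrez IDs of all 6 measured members matched RefSeq symbols.

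The members, the gene lists and the doubt about 2 arrays were chosen with earlier results of these data known. Beside the members, the largest called list genes, Cdh1 and Epcam, and the 3 genes most correlated with each member could be named. Alternatives were cyclic loess, leaving out dim genes, probe set means, array weights, a trended prior, the compared groups alone, a replicate block and leaving out each array.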

Additional observations from a re-analysis of the deposited data

How the results depend on the processing

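Of the 16 called differences of single members, 10 kept direction and call under every alternative run for them, among them Zeb1 in all 3 comparisons with leukemia, and 0 reversed. The other 6 lost the call in 23 fits. Members called lower in GFP+ colonies than in leukemia numbered 2 without dim genes, with probe set means and with array weights, and members called higher 1 with array weights. Without GFP+ replicate 3 and GFP- replicate 1 together, an alternative chosen after seeing the data, these counts were 2 lower and 1 higher. In GFP- colonies against leukemia 2 were lower without dim genes, 2 higher with array weights, 0 higher with the compared groups alone, and 2 higher and 2 lower without both arrays. In iPS cells against leukemia, GFP+ and GFP- colonies 2 were higher without dim genes, which tested 3 members only, and against GFP- colonies 1 with the compared groups alone. Without 1 array each, members higher ranged from 0 to 1 (GFP+ over leukemia), 0 to 2 (GFP- over leukemia) and 2 to 5 (iPS over GFP-), and members lower from 1 to 2 in GFP+ and 1 to 2 in GFP- colonies against leukemia. The cause was not tested.

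Uncalled differences near 0 changed sign. With array weights Snai2 was -0.02 in GFP+ and -0.12 in GFP- colonies against leukemia and -0.10 between colonies, Vim 0.35 between colonies and Snai1 -0.03 in iPS cells against GFP+ colonies (-0.03 with cyclic loess). Vim between colonies was 0.16 with probe set means. Without both arrays Snai1 and Vim were -0.24 and 0.39 between colonies, and Snai1 -0.14 and 0.11 in iPS cells against GFP+ and GFP- colonies. Without 1 array each, the ranges between colonies were -0.12 to 0.22 for Snai1, -0.16 to 0.32 for Twist1, -0.19 to 0.21 for Vim and -0.24 to 0.02 for Zeb1 (0.00 without GFP+ replicate 2). They were -0.14 to 0.11 and -0.22 to 0.11 for Snai1 in iPS cells against GFP+ and GFP- colonies, and -0.05 to 0.07 for Snai2 in GFP+ colonies against leukemia.

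Whether the replicate numbers pair the arrays was not settled. Deviations of same-numbered arrays correlated between -0.377 and 0.322, both extremes between GFP- and GFP+ colonies (replicates 3 and 2). With 3 arrays a group such correlations cannot decide it. With the replicate block the member counts were the same in all 6 comparisons, 4 higher and 1 lower in iPS cells against leukemia. Cyclic loess moved the share of higher genes among all calls from 59.2% to 46% for iPS cells against GFP+ and from 69% to 58.8% against GFP- colonies, and no member's call. The 4-group fit assumes equal spread, which the colonies exceed.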

Other observations

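Among corepressor genes that Snail and Zeb proteins recruit, the close relatives Ctbp1 and Ctbp2 moved in opposite directions, a pair singled out after its values were seen. Ctbp2 rose over leukemia by 3.06 ± 0.18 in GFP+ colonies, 3.21 ± 0.18 in GFP- colonies and 3.59 ± 0.18 in iPS cells (adjusted p = 8.15e-07, 5.87e-07 and 2.64e-07, limma). Ctbp1 fell by 0.75, 1.05 and 1.22 on the log2 scale (adjusted p = 0.00478, 6.33e-04 and 1.90e-04). Ctbp2 measured 5.33, 5.48 and 5.69 on leukemia arrays and 8.26 to 9.12 on the other 9, without overlap. Of the 9 corepressor genes 2 rose and 3 fell in each colony group, and 2 rose and 2 fell in iPS cells (4 and 4 with the compared arrays alone), and the other 4 to 5 were not called. The H3K4 demethylase gene Kdm1a was the other that rose in the fit of all arrays, by 0.55, 0.58 and 0.56.

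Of 13 genes of the TGF-beta pathway, an inducer of the transition, 1 rose and 2 fell in GFP+ colonies against leukemia, 1 rose and 3 fell in GFP- colonies, and 4 rose and 2 fell in iPS cells, with medians of 0.02, -0.09 and 0.20. In GFP- colonies 3 rose and 2 fell without GFP- replicate 3, and in iPS cells 1 fell without any 1 array of the comparison and 2 rose without leukemia replicate 2 or iPS replicate 3. Over all genes 9.60%, 9.02% and 12.4% rose over leukemia in GFP+ colonies, GFP- colonies and iPS cells. Calls in either direction made up 21.9%, 21.0% and 24.3%. The counts of this list, of the corepressors above, of the filament genes below and of the other gene lists were not tested against such shares. The inhibitor gene Smad7 rose over leukemia by 2.96 ± 0.44, 3.24 ± 0.44 and 3.48 ± 0.44 in GFP+ colonies, GFP- colonies and iPS cells (adjusted p = 7.38e-04, 4.15e-04 and 2.14e-04), and the receptor gene Tgfbr1 fell by 1.01, 1.28 and 0.82 (adjusted p = 0.00297, 6.63e-04 and 0.00811). Of 10 intermediate filament genes outside the keratins 2, 1 and 2 rose and 0 fell in these comparisons (in GFP- colonies 4 without GFP- replicate 1 and 3 without GFP- replicate 3, in iPS cells 1 without any 1 array). Nefl, a neurofilament subunit gene, rose by 3.33 ± 0.31, 3.46 ± 0.31 and 4.10 ± 0.31 in the same order (adjusted p = 3.12e-05, 2.29e-05 and 6.04e-06), further than its relative Vim moved in any comparison.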
